A study of Homo sapiens with 12 samples.

Results

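The 248 antisense long noncoding RNAs described here are the genes of a HepG2 count table whose symbol ends in -AS and a digit, out of 13511 genes in all. HepG2 cells come from a human liver tumour and still express many genes of hepatocytes. The table holds 12 libraries of poly(A)-enriched RNA, with 3 libraries for each of 4 groups. The A-485 and Dox cells were pretreated for 1 h with 5 µM A-485, which blocks the catalytic domain of the acetyltransferases CBP and p300, and then received 30 µg/ml doxycycline beside it for 24 h. The A-485 cells had the inhibitor alone, the Dox cells had doxycycline after the solvent DMSO, and the DMSO cells had the solvent alone. Doxycycline, a tetracycline, blocks protein synthesis on mitochondrial ribosomes, and no group received any other antibiotic. All libraries are of 1 wild-type line, and whether a group's 3 libraries are separate cultures is not stated. Each p-value is thus set against the spread among libraries that may differ only technically.

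An antisense RNA is transcribed from the DNA strand opposite to another gene, here called its partner, the gene whose symbol it carries. Some start back to back with the partner at a shared promoter region, some run into the partner's end, and some lie wholly inside it. Individual antisense RNAs are known to affect their neighbour's transcription or chromatin, to base-pair with other RNAs or to bind proteins, and for many no function is known. CBP and p300 acetylate histones at enhancers and promoters and act as coactivators for many transcription factors.

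Of the 248 RNAs, 246 have a partner that is annotated in GENCODE 29 (GRCh38), and 222 have a partner that is itself in the table, which comes to 220 distinct genes. By their annotation 172 are of the type antisense, 39 processed transcripts and 29 lincRNAs, and 1, NCBP2-AS2, is listed as protein coding. Against the partner, 109 overlap at the 5′ ends, 45 at the 3′ ends, 41 are divergent with no overlap, 30 lie inside the partner and 21 span it. The start sites of antisense RNA and partner lie within 1 kb of each other for 108. Median exonic length was 3118 bp, with a range of 575 to 20654 bp, against 4780 bp for all genes.

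Whether reads were counted by strand is not stated in any source used here. None of the 361 annotated antisense genes whose exons are covered to 95% or more by exons on the opposite strand is in the table, and neither is any of 18 such protein-coding genes. Of the genes without exon overlap on either strand, 6.07% of 2374 antisense and 54.05% of 11097 protein-coding genes are in it. That is the pattern counting without strand would give, with reads in shared exon bases assigned to neither gene. Reads of unspliced partner RNA inside the antisense exons cannot be told apart from antisense RNA. Exon bases are shared in 147 of the 222 pairs and not in 75.

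Promoter sequence is shown for 4 RNAs picked by their changes in these data. The first has the largest fall under A-485. The second has a large fall under A-485 and shares no exon base with any gene. The third has the largest rise under A-485 and the fourth the largest rise under doxycycline. Each exceeded 1 CPM of the library total only in libraries on the side where it was high. Its difference was thus built into its presence in the table. Each window holds 250 bases before and 50 bases after the RefSeq start (GRCh38.p14), read 5′ to 3′ on the strand of the RNA, with CG dinucleotides in capitals. For VLDLR-AS1 this start lies inside the GENCODE gene, whose 5′ end is at 2643359, so the window is not at the GENCODE start. They are, in order, chr20:44395613-44395912, chr17:79027606-79027905, chr2:172465973-172466272 and chr9:2622324-2622623, all on the minus strand.
HNF4A-AS1: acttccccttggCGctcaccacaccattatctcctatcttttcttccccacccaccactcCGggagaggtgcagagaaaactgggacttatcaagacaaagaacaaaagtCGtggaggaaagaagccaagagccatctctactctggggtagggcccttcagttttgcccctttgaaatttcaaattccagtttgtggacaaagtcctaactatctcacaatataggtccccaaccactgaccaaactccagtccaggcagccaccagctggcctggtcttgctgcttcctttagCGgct
C1QTNF1-AS1: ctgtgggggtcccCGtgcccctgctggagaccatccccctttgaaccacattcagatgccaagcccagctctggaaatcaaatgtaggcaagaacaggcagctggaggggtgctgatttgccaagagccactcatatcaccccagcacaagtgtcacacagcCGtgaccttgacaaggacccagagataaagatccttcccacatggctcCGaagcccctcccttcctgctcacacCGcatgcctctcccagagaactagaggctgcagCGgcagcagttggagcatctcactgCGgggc
ITGA6-AS1: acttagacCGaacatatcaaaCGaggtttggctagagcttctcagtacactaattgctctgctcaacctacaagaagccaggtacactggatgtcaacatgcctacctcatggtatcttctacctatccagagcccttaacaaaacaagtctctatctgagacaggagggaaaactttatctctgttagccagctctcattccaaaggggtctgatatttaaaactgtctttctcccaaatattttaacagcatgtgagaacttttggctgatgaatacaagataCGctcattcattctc
VLDLR-AS1: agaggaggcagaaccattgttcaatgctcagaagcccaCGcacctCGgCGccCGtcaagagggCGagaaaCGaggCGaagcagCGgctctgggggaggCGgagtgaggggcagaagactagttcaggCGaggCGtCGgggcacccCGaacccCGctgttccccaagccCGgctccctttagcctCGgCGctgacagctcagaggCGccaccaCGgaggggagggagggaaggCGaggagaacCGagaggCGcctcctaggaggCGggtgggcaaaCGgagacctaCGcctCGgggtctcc
The letters CG, which read the same on both strands, occur 4 times for HNF4A-AS1, 6 times for C1QTNF1-AS1 and 3 times for ITGA6-AS1. Of 34943 RefSeq windows of the same 300 bases, 29.7% hold at most 4, 36.9% at most 6 and 24.6% at most 3. The VLDLR-AS1 window holds 26, and 30.0% of the windows hold at least as many. Since 174 of the 248 RNAs matched a RefSeq entry, no promoter comparison over the whole set was made.

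Gene counts ran from 46600324 to 51773300 per library, and all 13511 genes exceed 1 CPM of the library total in at least 2 libraries. Of the 248 antisense RNAs, 156 exceed it in all 12 libraries. A further 15 exceed it only in libraries without A-485, 19 only in libraries with A-485 and 4 only in libraries with doxycycline, with 2 RNAs in both of the last groups, so for these a difference was built into their presence in the table. Among RNAs described here this holds for HNF4A-AS1, SNAP25-AS1, SSTR5-AS1, F11-AS1, TM4SF1-AS1, C1QTNF1-AS1 and MNX1-AS1 (only without A-485). It also holds for ITGA6-AS1, ITGB2-AS1, RASSF8-AS1, UPK1A-AS1 and HLA-F-AS1 (only with A-485) and for VLDLR-AS1 (only with doxycycline). Their p-values for the compound in question are given with that limit. All 8 listed hepatocyte markers were in the table, and their summed level was 18357 to 18660 CPM in A-485 and Dox, 19757 to 19840 in A-485, 41433 to 63892 in Dox and 53799 to 54605 in DMSO. Of listed endothelial, leukocyte and stromal markers, 2 of 5, 2 of 4 and 2 of 4 were in the table, with sums of at most 32.9 CPM in any library. Those sums ran from 11.1 to 12.5 CPM with A-485 against 5.54 to 6.38 CPM without it for the endothelial list. For the stromal list they ran from 9.18 to 11.1 CPM with A-485 against 21.3 to 32.9 CPM without it, and for the leukocyte list from 1.92 to 3.53 against 2.46 to 8.20. Their part in the results was not tested. CPM is a count scaled to a fixed library size, with TMM-adjusted gene totals except where the library total is named. Log2 fold changes carry an approximate standard error (SE), taken as the size of the change over the square root of its edgeR F statistic. A gene is called higher or lower at an edgeR quasi-likelihood p under 0.05 after Benjamini-Hochberg adjustment over all genes.

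Dox replicate 1 stands apart from the other 11 libraries in the antisense RNAs and in the whole table. Its median log2 ratio to the mean of Dox replicates 2 and 3 was 0.37 over the 248 antisense RNAs, against -0.02 over all genes. In that library 47 of them, 19.0%, were more than 2-fold above the mean of the other 2 Dox libraries and 15, 6.05%, more than 2-fold below it, against 17.1% and 15.8% of all genes. The other 2 differed from each other by more than 2-fold in 0 of the 248. The median was 0.55 for RNAs up to the median exonic length and 0.22 for longer ones, with a Spearman correlation of -0.30 with length across the 248, all measured in the same 3 libraries. Each comparison is given with and without this library, since the common coefficient of variation was 20.7% with it and 1.52% without it.

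Most antisense RNAs were scarce. The median mean level was 3.06 CPM, against 25.9 CPM for all genes, and the median RNA had a mean of 152 counts per library. The 5 with the highest mean CPM were FGD5-AS1, OIP5-AS1, LRRC75A-AS1, GABPB1-AS1 and MAGI2-AS3. Per kb of exon not shared with another gene, LRRC75A-AS1 stood at 35.0 CPM per kb and FGD5-AS1 at 28.5 in DMSO. OIP5-AS1 followed at 10.7, GABPB1-AS1 at 4.04 and MAGI2-AS3 at 2.72 CPM per kb. The exonic lengths are 12673 bp for OIP5-AS1, 17179 bp for GABPB1-AS1 and 11625 bp for MAGI2-AS3, against 5131 bp for FGD5-AS1 and 3759 bp for LRRC75A-AS1. The median antisense RNA stood at 17.9% of its partner's level per kb in DMSO. It was above the partner in 34 of the 222 pairs and under 10% of it in 84. MAGI2-AS3 was at 1323% of MAGI2, a scaffold protein of cell junctions, and C1QTNF1-AS1 at 538% of C1QTNF1, a secreted protein related to adiponectin.

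A-485 changed many antisense RNAs in both directions, and the largest fall was that of HNF4A-AS1. In A-485 against DMSO, 83 antisense RNAs rose and 56 fell, 33.5% and 22.6% of the 248, against 26.3% and 27.1% of all genes, 53.3% in either direction. Beyond 2-fold, 32 of the 248 rose and 37 fell, against 1307 and 2021 of all 13511 genes. Of the 248, 15 exceeded 1 CPM only in libraries without A-485 and 19 only in libraries with it. For these a difference was built in. The median log2 fold change was 0.15 over the antisense RNAs and 0.04 over all genes. Neither group holds Dox replicate 1, so leaving it out changed the estimate of the spread and left the median at 0.15. All 139 kept sign and call in that fit, which is thus no separate test of them. In it 120 rose and 84 fell, against 46.6% and 43.7% of all genes, or 90.3% in either direction. The split depends on scaling: with library totals alone in place of TMM, which moves the median of all genes to 0.39, 128 rose and 37 fell, against 40.7% and 18.1% of all genes. Likewise the summed antisense level was lower with A-485 by TMM-scaled CPM, at 1646 to 1650 against 1683 to 1699 in DMSO, and higher as a share of gene counts, at 0.188 to 0.189% against 0.151 to 0.152%.

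HNF4A-AS1 (ENSG00000229005, chromosome 20, 44372746 to 44395706, minus strand), which lies inside the gene of the nuclear receptor HNF4A, a master regulator of the hepatocyte programme, and shares no exon base with it, was almost lost. It had 0, 0.0171 and 0.0176 CPM in A-485, against 11.6, 12.5 and 12.5 CPM in DMSO. With 2 counts in all in A-485 and 1605 in DMSO, the level was lower in A-485 by a factor of 1061, with an exact 95% counting interval of 293 to 8770 (edgeR adjusted p = 1.1e-07). HNF4A itself had 60.2, 60.0 and 59.5 CPM in A-485, against 452, 466 and 455 in DMSO, and fell by 2.93 ± 0.09 on the log2 scale (edgeR adjusted p = 6.1e-09). As a share of HNF4A per kb, the antisense RNA stood at 0.15% in A-485 and 21.4% in DMSO.

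SNAP25-AS1 (ENSG00000227906, chromosome 20, 10021978 to 10368776, minus strand) spans SNAP25, which encodes a protein of synaptic vesicle fusion and is not among the genes analysed. It had 0, 0.0341 and 0 CPM in A-485, against 4.15, 2.91 and 3.03 CPM in DMSO. The 2 counts in A-485 against 440 in DMSO give a factor of 291, with a counting interval of 80.1 to 2410 (edgeR adjusted p = 6.4e-07).

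SSTR5-AS1 (ENSG00000261713, chromosome 16, 1064093 to 1078731, minus strand) starts 50 bp from the start of SSTR5, a somatostatin receptor, on the other strand. It had 0.103, 0.0682 and 0.176 CPM in A-485, against 5.67, 4.59 and 5.01 in DMSO, and fell by 5.43 ± 0.41 (edgeR adjusted p = 2.3e-06). SSTR5 had 0.138, 0.171 and 0.265 CPM, against 9.23, 9.32 and 9.61, and fell by 5.60 ± 0.47. The 2 transcripts thus fell by like amounts, and the ratio of the antisense RNA to SSTR5 per kb was 26.3% in A-485 and 23.5% in DMSO.

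F11-AS1 (ENSG00000251165, chromosome 4, 186286094 to 186500997, minus strand) meets the 3′ end of F11, which encodes coagulation factor XI. It had 0.103, 0.154 and 0.247 CPM in A-485, against 4.92, 3.97 and 3.98 in DMSO, and fell by 4.66 ± 0.56 (edgeR adjusted p = 6.3e-05). F11 fell by 4.28 ± 0.38, to a mean of 3.18 CPM in A-485, against 61.9 in DMSO. TM4SF1-AS1 (chromosome 3, 149377778 to 149386583, plus strand) starts 87 bp from TM4SF1, a tetraspanin-like membrane protein, and fell by 4.66 ± 0.54 while TM4SF1 fell by 1.22 ± 0.16. For HNF4A and TM4SF1 the antisense RNA fell further than its partner, and in the pairs of SSTR5 and F11 the 2 changes lay within 1 SE of each other.

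**Figure D1:**
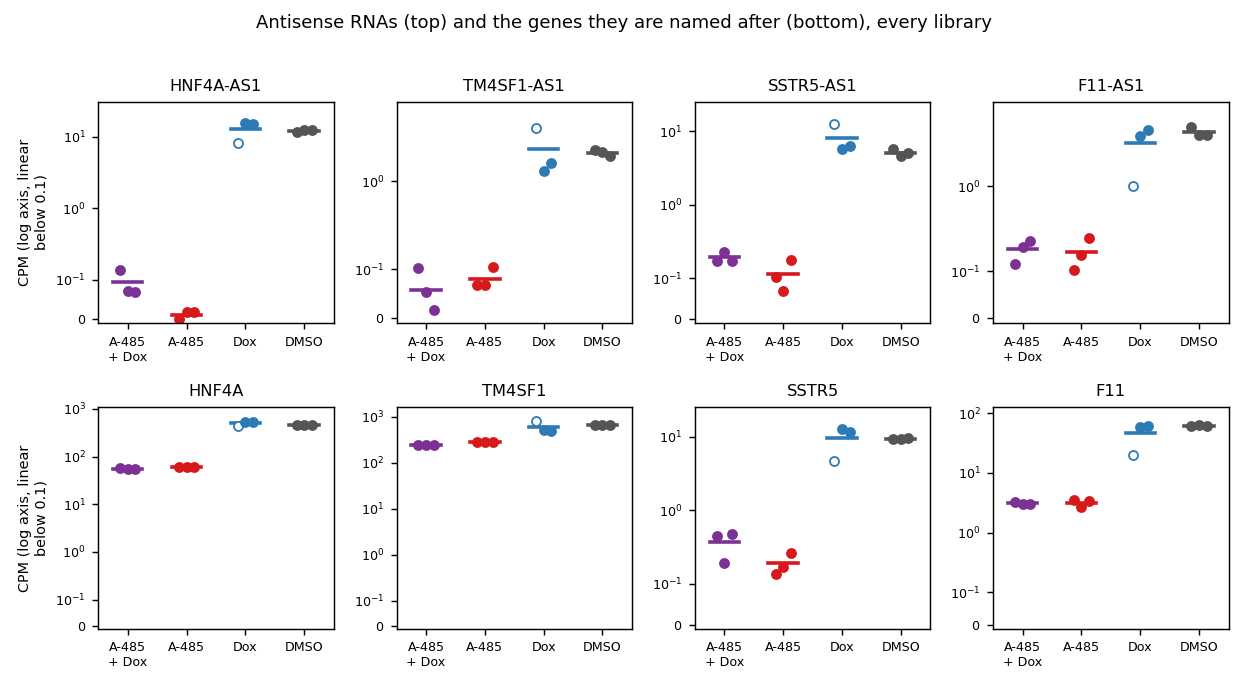
CPM of 4 antisense RNAs (top) and of their partner genes (bottom) in every library, on a log axis that is linear below 0.1. Points are libraries, bars group means, and the open circle is Dox replicate 1. In each of the 8 panels all 6 libraries with A-485 lie below all 6 without it.

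C1QTNF1-AS1 (ENSG00000265096, chromosome 17, 79019209 to 79027655, minus strand) shares no exon base with any gene. It had 0.172, 0.119 and 0.176 CPM in A-485, against 2.55, 2.75 and 2.82 in DMSO, and fell by 4.10 ± 0.38 (edgeR adjusted p = 1e-05). C1QTNF1 fell by 1.20 ± 0.13. The antisense RNA was above its partner per kb in DMSO, at 538%, and below it in A-485, at 71.5%.

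Among the rises under A-485, ITGA6-AS1, ITGB2-AS1 and RASSF8-AS1 are in the table only through libraries with A-485. ITGA6-AS1 (ENSG00000232788, chromosome 2, 172464262 to 172466022, minus strand), inside the gene of the laminin receptor subunit integrin alpha 6, had 1.69, 2.01 and 1.76 CPM in A-485, against 0.188, 0.0956 and 0.150 in DMSO. It rose by 3.63 ± 0.35 (edgeR adjusted p = 1.2e-05), while ITGA6 fell by 1.57 ± 0.38. ITGB2-AS1 (ENSG00000227039, chromosome 21, 44921051 to 44929678, plus strand), inside the gene of the beta chain of leukocyte integrins, had 1.36, 1.38 and 1.68 CPM in A-485, against 0.211, 0.119 and 0.0645 in DMSO, a rise of 3.48 ± 0.35 (edgeR adjusted p = 1.9e-05). ITGB2 rose by 1.04 ± 0.09, so the antisense RNA was at 8.13% of it per kb in A-485 and 1.49% in DMSO.

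RASSF8-AS1 (chromosome 12, 25939329 to 25959765, minus strand) and RASSF8, a Ras-association domain protein, start 736 bp apart and rose together. RASSF8-AS1 had 4.12, 3.62 and 4.17 CPM in A-485, against 0.727, 0.597 and 0.451 in DMSO, a rise of 2.74 ± 0.24, beside 2.46 ± 0.32 for RASSF8. PAN3-AS1 (chromosome 13, 28136843 to 28138193, minus strand), divergent to a subunit of the PAN2-PAN3 deadenylase, rose by 2.05 ± 0.17 and PAN3 by 0.56 ± 0.20. TNRC6C-AS1 (chromosome 17, 78107398 to 78111799, minus strand), beside a scaffold protein of microRNA silencing, rose by 2.05 ± 0.27 and TNRC6C by 0.66 ± 0.09. MMP25-AS1 (chromosome 16, 3037403 to 3059370, minus strand), beside a membrane-bound matrix metalloproteinase, rose by 1.69 ± 0.17, less than MMP25 with 4.42 ± 0.45.

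Of 17 antisense RNAs listed by symbol, 12 were in the table and the other 5 were not analysed here. Under A-485, 7 of the 12 fell and 0 rose by the edgeR test. Beside HNF4A-AS1, TMPO-AS1 fell by 1.65 ± 0.17, DDX11-AS1 by 1.43 ± 0.27, SREBF2-AS1 by 0.98 ± 0.33, GABPB1-AS1 by 0.59 ± 0.20 and OIP5-AS1 by 0.44 ± 0.07. Each of these 5 has a partner that fell as well: TMPO, a lamina-associated protein, by 0.82 ± 0.21, the helicase gene DDX11 by 0.71 ± 0.08, the sterol-sensing factor SREBF2 by 1.28 ± 0.08, GABPB1, a subunit of the factor GABP, by 0.24 ± 0.08 and OIP5, a centromere protein, by 1.89 ± 0.18. With library totals alone the changes of GABPB1-AS1 and OIP5-AS1 were -0.24 and -0.09 and no longer passed. SLC16A1-AS1 changed by -0.77 ± 0.36 (edgeR adjusted p = 0.095), although its partner SLC16A1, a lactate transporter, fell by 1.48 ± 0.22. MCM3AP-AS1, NNT-AS1, FGD5-AS1 and MAPKAPK5-AS1 did not pass, with log2 fold changes of -0.59, -0.21, 0.22 and 0.08. The value of NNT-AS1, whose partner is the mitochondrial transhydrogenase NNT, turned to 0.14 with library totals alone.

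Of the remaining highest-level RNAs, LRRC75A-AS1 had 60.2, 60.0 and 60.8 CPM in A-485, against 111, 105 and 108 in DMSO, and fell by 0.84 ± 0.06. MAGI2-AS3 had 52.7, 49.5 and 51.9 CPM, against 32.1, 31.2 and 30.3, and rose by 0.72 ± 0.17, beside a rise of 1.20 ± 0.22 for MAGI2.

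Of the pairs with both genes called under A-485, 49 moved in the same direction and 15 in opposite directions. Both genes were called in 64 of the 222 pairs: 23 with both higher, 26 with both lower and 15 in opposite directions. The antisense RNA alone was called in 58, the partner alone in 43 and neither in 57. Where both were called, the antisense RNA had the larger change in 39 of 64. That count covers only called pairs, in which a scarce RNA needs a larger change to pass. The median antisense RNA stood at 17.9% of its partner per kb in DMSO, so the count does not show a stronger response. Without Dox replicate 1 both were called in 169 pairs, 115 in the same direction and 54 in opposite ones. Across the 222 pairs the Spearman correlation of the 2 log2 fold changes was 0.43. The pairs share their libraries and scaling, and the value was 0.47 in the 75 pairs without shared exon bases.

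By layout of the pair the counts were as follows. Of divergent pairs without overlap, 8 of 40 had both genes called, 8 in the same direction and 0 in opposite ones (Spearman 0.55). Of pairs that overlap at the 3′ ends, 10 of 38 had both called, 5 in the same and 5 in opposite directions (Spearman 0.20). Pairs overlapping at the 5′ ends had 25 in the same and 7 in opposite directions among 104, and RNAs inside their partner 10 and 2 among 26. Without Dox replicate 1 the same and opposite counts were 20 and 5 for divergent pairs and 13 and 13 for pairs overlapping at the 3′ ends. The difference between layouts was not tested.

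**Figure D2:**
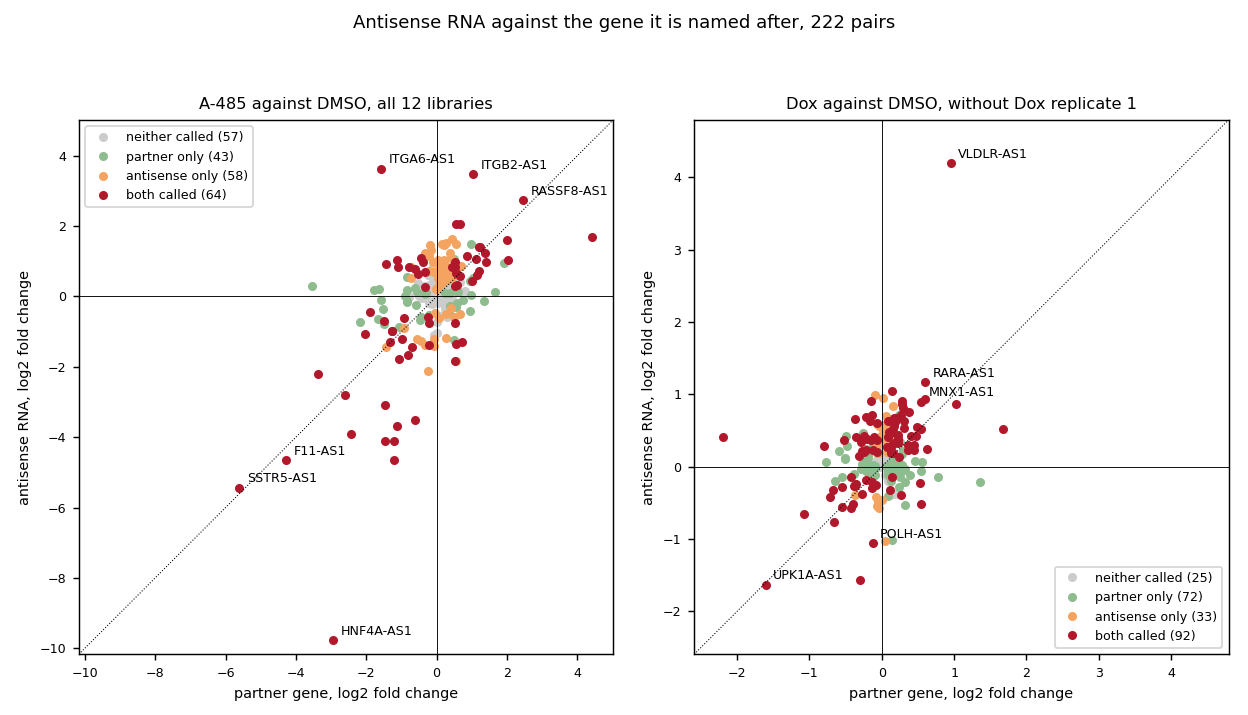
Log2 fold change of each antisense RNA against that of its partner gene in 222 pairs, for A-485 against DMSO with all 12 libraries (left) and Dox against DMSO without Dox replicate 1 (right). Colours give which of the 2 genes was called at an adjusted p under 0.05 and the dotted line marks equal change; both were called in 64 pairs on the left and 92 on the right.

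Among the pairs called in opposite directions, ITGA6 had the largest gap. NOP14-AS1 (ENSG00000249673, chromosome 4, 2934899 to 2961738, plus strand) meets the 3′ end of NOP14, a factor of small ribosomal subunit assembly. It had 14.1, 15.0 and 14.01 CPM in A-485, against 6.84, 7.02 and 7.31 in DMSO, and rose by 1.03 ± 0.17 (edgeR adjusted p = 0.00053). NOP14 had 29.4, 28.2 and 27.2 CPM, against 62.9, 62.5 and 61.4, and fell by 1.14 ± 0.11. Neither set of libraries overlapped, and per kb the antisense RNA was at 22.6% of NOP14 in A-485 and 5.05% in DMSO.

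A2M-AS1 (chromosome 12, 9065177 to 9068684, plus strand) rose by 0.93 ± 0.16 while A2M, the plasma protease inhibitor alpha-2-macroglobulin, fell by 1.45 ± 0.33. LIFR-AS1 (chromosome 5, 38556786 to 38671216, plus strand) rose by 0.83 ± 0.19 while LIFR, the receptor of leukaemia inhibitory factor, fell by 1.09 ± 0.41. TAF1A-AS1 (chromosome 1, 222589825 to 222593032, plus strand) starts 108 bp from TAF1A, a subunit of the RNA polymerase I factor SL1, and rose by 0.85 ± 0.10 while TAF1A fell by 0.78 ± 0.23. SPRY4-AS1, described with doxycycline, is among the 15 as well.

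Under doxycycline more antisense RNAs were called higher than lower, with or without Dox replicate 1, and the number called depended on that library. In Dox against DMSO, 43 rose and 10 fell, 17.3% and 4.03% of the 248, against 9.01% and 7.08% of all genes, 16.1% in either direction. The median log2 fold change was 0.32, against 0.03 for all genes. Leaving out Dox replicate 1 gave a median of 0.16 against 0.00, and 104 rose and 37 fell, 41.9% and 14.9%, against 32.8% and 33.3% of all genes, 66.0% in either direction. All 53 called with every library kept sign and call without it. Leaving out a DMSO library gave 20 to 26 rises and 1 to 2 falls, and DESeq2 called 71 higher. With Dox and DMSO compared alone, far fewer were called higher than in any of these fits. No share of all genes was taken for these settings, so their counts cannot be set against the background.

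**Figure D3:**
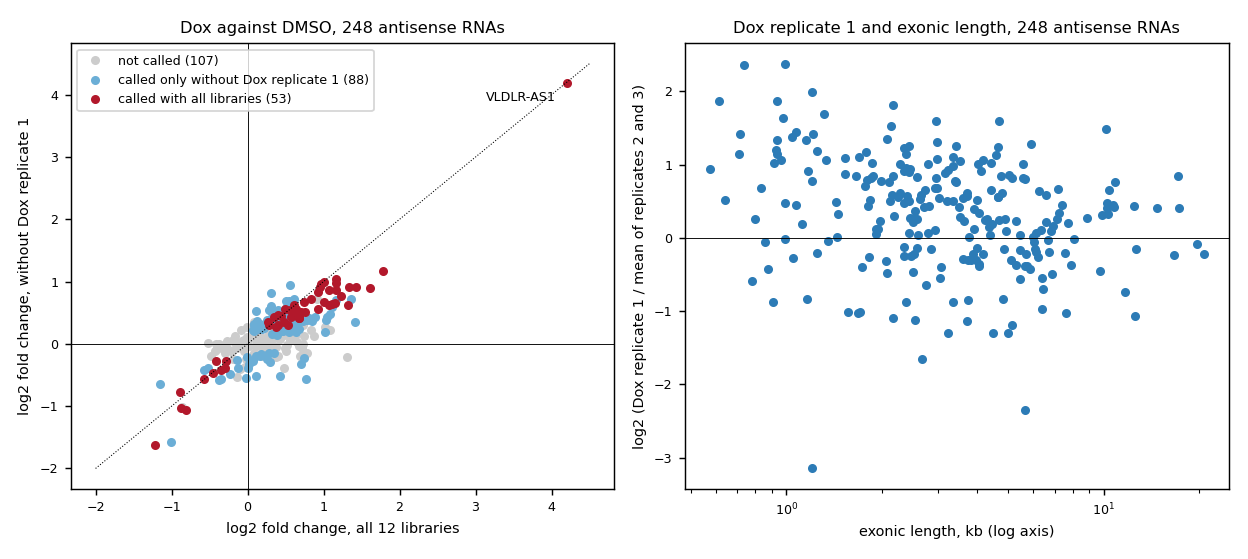
Left, log2 fold change of the 248 antisense RNAs in Dox against DMSO with all 12 libraries (horizontal) and without Dox replicate 1 (vertical), where red points are called with all libraries, blue points only without that library, and the dotted line marks equal values. Right, log2 ratio of Dox replicate 1 to the mean of Dox replicates 2 and 3 against exonic length in kb on a log axis; short RNAs lie mostly above 0.

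VLDLR-AS1 (ENSG00000236404, chromosome 9, 2421597 to 2643359, minus strand) overlaps the 5′ end of VLDLR, the very low density lipoprotein receptor, and shares 738 bp of exon with it. It had 4.68, 4.65 and 4.64 CPM in Dox, against 0.258, 0.143 and 0.344 in DMSO. All 3 Dox libraries stood together and far above DMSO, and the rise was 4.20 ± 0.25 with all libraries (edgeR adjusted p = 6.4e-06) and 4.19 without Dox replicate 1. VLDLR had 29.1, 37.6 and 38.0 CPM in Dox, against 19.3, 19.4 and 19.6 in DMSO, and rose by 0.85 ± 0.10. The antisense RNA was at 21.9% of VLDLR per kb in Dox and 2.09% in DMSO.

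RARA-AS1 (chromosome 17, 40340867 to 40343136, minus strand), inside the gene of the retinoic acid receptor alpha, had 4.26, 1.60 and 1.64 CPM in Dox, against 0.492, 0.884 and 0.774 in DMSO. It rose by 1.78 ± 0.39, or 1.17 without Dox replicate 1, and RARA by 1.05 ± 0.24, or 0.60. MNX1-AS1 (chromosome 7, 157010805 to 157016426, plus strand), 154 bp from the start of the homeobox gene MNX1, had 6.02, 2.34 and 1.70 CPM, against 1.24, 0.932 and 1.07. It rose by 1.61 ± 0.41, or 0.90 without that library, and MNX1 by 0.67 ± 0.10, or 0.55. MCF2L-AS1 (chromosome 13, 112967484 to 112968824, minus strand), inside the gene of a guanine nucleotide exchange factor, rose by 1.42 ± 0.29, or 0.91 without it, and MCF2L changed by -0.36 ± 0.17 (edgeR adjusted p = 0.18). In these 3 RNAs Dox replicate 1 was the highest library, but replicates 2 and 3 also lay above all DMSO libraries.

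Of the 10 falls, 4 are described here and NPSR1-AS1 with the comparison within A-485. UPK1A-AS1 (chromosome 19, 35667948 to 35673291, minus strand), inside the uroplakin gene UPK1A, had 0.209, 0.126 and 0.0630 CPM in Dox, against 0.305, 0.287 and 0.301 in DMSO. It fell by 1.22 ± 0.36 with all libraries (edgeR adjusted p = 0.044) and by 1.63 without Dox replicate 1. The fall rests on 16 counts in Dox and 39 in DMSO, a factor of 2.39 with a counting interval of 1.31 to 4.59. Every library of both groups lay under 1 CPM. HLA-F-AS1 (chromosome 6, 29726601 to 29749049, minus strand), beside a class I histocompatibility gene, fell by 0.89 ± 0.24, and HLA-F changed by 0.25 ± 0.44 with Dox replicate 1 and -0.66 without it. BTG3-AS1 (chromosome 21, 17611744 to 17633199, plus strand), beside an antiproliferative gene, fell by 0.87 ± 0.22, while BTG3 changed by -0.06 ± 0.10. POLH-AS1 (chromosome 6, 43588230 to 43591362, minus strand), inside the gene of DNA polymerase eta, had 1.43, 0.821 and 0.966 CPM in Dox, against 1.88, 1.96 and 1.76 in DMSO, and fell by 0.81 ± 0.21. UPK1A-AS1 and BTG3-AS1 had risen under A-485, by 1.62 ± 0.27 and 1.33 ± 0.20, and POLH-AS1 had fallen, by 0.99 ± 0.21, in a comparison that shares the DMSO libraries.

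Of the 12 listed RNAs, SLC16A1-AS1 was the one called in Dox against DMSO. It had 40.0, 14.0 and 13.8 CPM in Dox, against 9.47, 9.01 and 8.49 in DMSO, and rose by 1.33 ± 0.35, or 0.63 without Dox replicate 1, while SLC16A1 changed by -0.43 ± 0.22 and -0.16 without it. Dox replicate 1 was the highest library, and replicates 2 and 3 also lay above all DMSO libraries. LRRC75A-AS1, by contrast, had 148, 149 and 145 CPM in Dox, against 111, 105 and 108 in DMSO, and rose by 0.45 ± 0.06 (edgeR adjusted p = 0.00075), with no library apart, though with library totals alone its rise of 0.38 did not pass. FGD5-AS1 showed the reverse, with 57.8, 134 and 130 CPM in Dox, against 137, 138 and 136 in DMSO, and changes of -0.35 ± 0.25 with Dox replicate 1 and -0.05 without it, neither of which passed.

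Partner and antisense RNA were both called in 7 pairs under doxycycline, 6 with both higher, 1 with both lower and 0 in opposite directions. Without Dox replicate 1 both were called in 92 pairs, 45 with both higher, 20 with both lower and 27 in opposite directions, and DESeq2 with all libraries called 2 in opposite directions. The Spearman correlation across the 222 pairs was 0.29 with all libraries and 0.25 without that one.

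With A-485 present, doxycycline moved VLDLR-AS1 most, as it did without A-485, and few antisense RNAs passed the test with all libraries. In the comparison of A-485 and Dox with A-485, neither of which holds Dox replicate 1, 12 rose and 2 fell, 4.84% and 0.81%, against 3.74% and 3.66% of all genes, 7.39% in either direction. That library still entered the estimate of the spread: without it 75 rose and 40 fell, against 29.9% and 36.1% of all genes, 66.0% in either direction. The median log2 fold change was 0.06 in both fits. Without Dox replicate 1, 57 RNAs were called higher and 18 lower with doxycycline both with and without A-485, comparisons that share no library. These are 22.98% and 7.26% of the 248, against 18.7% and 20.9% of all genes. With all libraries 8 were higher in both and 1 lower, 3.23% and 0.40%, against 2.31% and 1.67% of all genes.

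VLDLR-AS1 again rose most, with 2.39, 3.10 and 2.89 CPM in A-485 and Dox, against 0.431, 0.614 and 0.441 in A-485, a log2 change of 2.49 ± 0.22 (edgeR adjusted p = 0.00016). SPRY4-AS1 (chromosome 5, 142325293 to 142672001, plus strand), beside an inhibitor of receptor tyrosine kinase signalling, had 1.19, 0.881 and 1.22 CPM, against 0.431, 0.444 and 0.635, and rose by 1.12 ± 0.22. TNFRSF14-AS1 (chromosome 1, 2549920 to 2557031, minus strand), beside the receptor gene TNFRSF14, had 8.32, 7.88 and 7.70 CPM, against 3.53, 3.92 and 3.58, and rose by 1.11 ± 0.09 (edgeR adjusted p = 8.9e-05). None of these groups overlapped.

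TNFRSF14-AS1 showed nearly the same rise whatever the background. It also rose by 1.01 ± 0.10 in Dox against DMSO, where its levels were 3.58, 3.33 and 3.47 CPM against 1.90, 1.67 and 1.57, and by 1.10 ± 0.10 in A-485 against DMSO. Its interaction was 0.10 ± 0.13, which did not pass. TNFRSF14 changed by 0.05 ± 0.20 with doxycycline on top of A-485 and by 0.25 ± 0.20 in Dox against DMSO, and neither passed. SPRY4-AS1 had fallen by 1.28 ± 0.22 under A-485 alone, where SPRY4 rose by 0.73 ± 0.22, and SPRY4 changed by 0.15 ± 0.21 when doxycycline was added.

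ZMIZ1-AS1 (chromosome 10, 78943328 to 79067895, minus strand), divergent to a transcriptional coregulator gene, rose by 0.84 ± 0.20 with doxycycline on top of A-485 and by 1.17 ± 0.21 without A-485, or 0.87 without Dox replicate 1. NPSR1-AS1 (chromosome 7, 34346512 to 34871582, minus strand) had 3.81, 3.53 and 3.75 CPM in A-485 and Dox, against 5.19, 5.53 and 5.01 in A-485, and fell by 0.51 ± 0.09 (edgeR adjusted p = 0.0093). It fell by 0.30 ± 0.09 in Dox against DMSO as well, and by 2.18 ± 0.09 under A-485 alone. MRPL20-AS1 (chromosome 1, 1399522 to 1402046, plus strand), beside a gene of the large mitochondrial ribosomal subunit, fell by 0.35 ± 0.08.

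In doxycycline-treated cells, too, A-485 changed antisense RNAs in both directions. In A-485 and Dox against Dox, 58 rose and 79 fell, 23.4% and 31.9%, against 27.1% and 32.9% of all genes, 60.0% in either direction, with a median log2 fold change of -0.10. With Dox replicate 1 left out, 105 rose and 91 fell, against 44.2% and 43.6%, 87.8% in either direction, and the median was 0.06. With library totals alone the counts were 110 and 54, against 42.1% and 20.7% of all genes. SNAP25-AS1 had 1 count in A-485 and Dox and 465 in Dox, a factor of 622 with a counting interval of 111 to 24627, and HNF4A-AS1 had 16 and 1732, a factor of 145 with an interval of 88.9 to 254.

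HNF4A-AS1 had 0.138, 0.0705 and 0.0697 CPM in A-485 and Dox, against 8.11, 15.5 and 15.2 in Dox. C1QTNF1-AS1 fell by 5.86 ± 0.43, or 5.36 without Dox replicate 1, with 0.0689, 0.0881 and 0.0523 CPM against 6.74, 2.82 and 3.09. SSTR5-AS1 fell by 5.39 ± 0.39, or 4.95. Among rises, ITGB2-AS1 had 1.76, 1.41 and 1.81 CPM in A-485 and Dox, against 0.0895, 0.105 and 0.0210 in Dox, a change of 4.52 ± 0.39, or 4.67. ITGA6-AS1 rose by 3.19 ± 0.34, or 3.78, UPK1A-AS1 by 3.10 ± 0.30, or 3.50, and RASSF8-AS1 by 2.78 ± 0.25, or 3.13. In all of these the libraries of the 2 groups lay apart.

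The interaction asks whether the doxycycline effect differed with A-485, taken as the change in A-485 and Dox against A-485 minus the change in Dox against DMSO. By edgeR 7 antisense RNAs were called lower and 0 higher, against 1.32% and 1.25% of all genes, 2.58% in either direction. At an unadjusted p under 0.05 there were 36, of which 6 were higher, against 2067 and 837 of all 13511 genes. DESeq2 called 14 lower and 1 higher, and no share of all genes was taken for it. The fit that omits Dox replicate 1 called 43 lower and 23 higher, against 26.6% and 21.8% of all genes, 48.4% in either direction. The median interaction was -0.27 with that library and -0.08 without it.

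VLDLR-AS1 had the largest called interaction, -1.71 ± 0.33 with all libraries (edgeR adjusted p = 0.028) and -1.71 without Dox replicate 1. Its rise with doxycycline was 2.49 with A-485 and 4.20 without it, and A-485 alone raised it by 0.98 ± 0.27. VLDLR had 64.9, 64.7 and 62.5 CPM in A-485 and Dox, 52.6, 50.3 and 51.2 in A-485, 29.1, 37.6 and 38.0 in Dox and 19.3, 19.4 and 19.6 in DMSO. The highest VLDLR level was thus in cells with both compounds, whereas the highest VLDLR-AS1 level was in cells with doxycycline alone. The interaction of VLDLR was -0.53 ± 0.14 (edgeR adjusted p = 0.084), and -0.64 without Dox replicate 1.

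NR2F1-AS1 (ENSG00000237187, chromosome 5, 93409359 to 93585648, minus strand), beside the nuclear receptor gene NR2F1, had 2.52, 2.34 and 2.28 CPM in A-485 and Dox, 3.17, 3.05 and 3.09 in A-485, 4.59, 3.94 and 3.95 in Dox and 3.12, 2.65 and 2.41 in DMSO. Doxycycline raised it by 0.61 ± 0.11 without A-485, and it changed by -0.38 ± 0.11 with A-485 (edgeR adjusted p = 0.076), an interaction of -0.99 ± 0.16 (edgeR adjusted p = 0.012). NR2F1 fell by 1.77 ± 0.12 under A-485 and by 0.70 ± 0.11 when doxycycline was added to it.

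TAF1A-AS1 and ZNF337-AS1 had a like pattern: either compound alone raised them and both together gave no further rise that passed. TAF1A-AS1 had 2.86, 2.94 and 3.43 CPM in A-485 and Dox, 2.90, 2.71 and 2.75 in A-485, 3.04, 2.97 and 3.05 in Dox and 1.64, 1.51 and 1.50 in DMSO, and its interaction was -0.82 ± 0.14 (edgeR adjusted p = 0.015). ZNF337-AS1 (chromosome 20, 25624045 to 25678074, plus strand), which shares 53.2% of its exon bases with the zinc finger gene ZNF337, rose by 0.79 ± 0.11 with A-485 and by 0.93 ± 0.11 with doxycycline, with an interaction of -0.76 ± 0.16 (edgeR adjusted p = 0.035). MRPL20-AS1 was called at -0.62. The other 2, ST20-AS1 at -0.69 and PSMG3-AS1 at -0.67, were chosen for naming after their values were seen. PSMG3-AS1, beside a proteasome assembly chaperone gene, averaged 4.41 ± 0.49 CPM in A-485 and Dox, 3.62 ± 0.05 in A-485, 2.46 ± 0.14 in Dox and 1.27 ± 0.02 in DMSO (SD, n = 3 each). MRPL20-AS1 had 18.0, 19.7 and 18.6 CPM in A-485 and Dox, 23.4, 24.6 and 23.7 in A-485, 23.6, 27.7 and 27.7 in Dox and 21.4, 21.8 and 22.2 in DMSO, so doxycycline raised it without A-485 and lowered it with A-485.

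**Figure D4:**
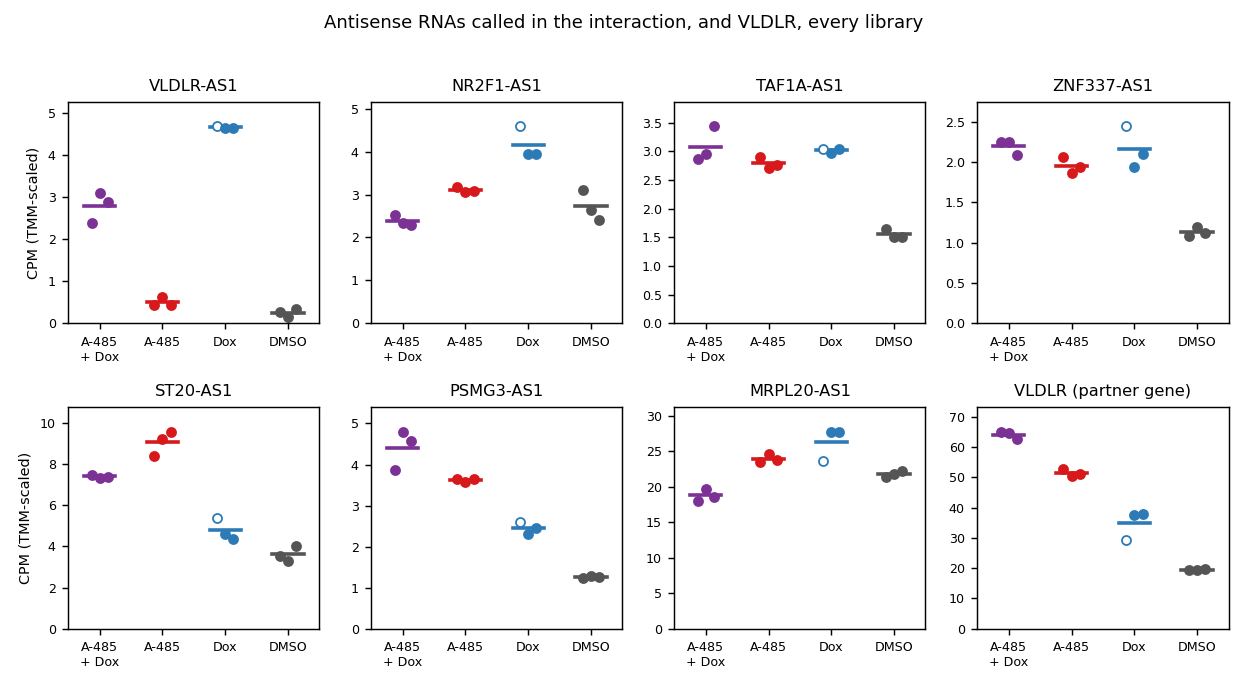
CPM in every library for the 7 antisense RNAs called in the interaction and for VLDLR, on axes that start at 0. Points are libraries, bars group means, and the open circle is Dox replicate 1. VLDLR-AS1 was highest in Dox, at 4.64 to 4.68 CPM, while VLDLR was highest in A-485 and Dox, at 62.5 to 64.9 CPM.

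Other noncoding classes, picked by symbol, give the setting. Under A-485, 47 of 134 LINC genes rose and 40 fell, and 14 of 36 divergent transcripts (symbols ending in -DT) rose and 7 fell. Of 16 small nucleolar RNA host genes 0 rose and 13 fell. Among the 220 partner genes 48 rose and 58 fell, with a median log2 fold change of 0.09, against 0.15 for the antisense RNAs. The shares of all genes were 26.3% and 27.1%. With library totals alone 66 LINC genes rose and 31 fell, 21 divergent transcripts rose and 4 fell, and host genes stood at 1 and 10. In that fit 83 partner genes rose and 36 fell, 37.7% and 16.4%, against 40.7% and 18.1% of all genes. The direction of the partner split thus turned, as did that of all genes. The fit that omits Dox replicate 1 turned both too. It had 112 partner genes higher and 92 lower, 50.9% and 41.8%, against 46.6% and 43.7% of all genes. Under doxycycline with all libraries 29 LINC genes rose and 6 fell, 21.6% and 4.48%, against 9.01% and 7.08% of all genes. Of the partner genes 16 rose and 10 fell, 7.27% and 4.55%, with a median of -0.06. Without Dox replicate 1 the partner median was 0.06 and the LINC median 0.13, against 0.16 for the antisense RNAs.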

How the data were processed

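Raw counts per gene were deposited by the authors for 12 poly(A) HepG2 libraries. Per the submitters' processing notes, STAR 2.6.0a, HTSeq 0.10.0 and GRCh38 were used, with no statement on strand. Rows that name no gene stayed out of library sizes and tests: ambiguous reads were 9.10 to 12.3% of a library, multimapping 2.96 to 3.76%, without feature 3.30 to 4.09% and unmapped 1.80 to 8.93%.

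All 13511 genes were fitted with edgeR 4.0.16 in R 4.3.3 (TMM scaling, filterByExpr, which removed no gene, robust quasi-likelihood F test, 1 coefficient per group, Benjamini-Hochberg adjustment over all genes). The common spread between libraries, as a biological coefficient of variation, came to 20.7%, and to 1.52% when Dox replicate 1 was dropped. DESeq2 1.42.0 was an alternative. The scripts were tested on simulated data. Positions, overlaps and lengths came from GENCODE 29, and levels per kb use exon bases shared with no other gene. Intervals of count ratios are exact at 95% and cover counting error only.

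Members and lists were chosen with earlier results of these data known. Named RNAs were those with the largest changes among called RNAs whose libraries did not overlap (6 each way for A-485 against DMSO, 4 each way for the other comparisons, 4 each way for the interaction without the overlap condition), the 5 with the highest mean CPM, up to 5 pairs called in opposite directions, and a list of symbols. Not all of them are described, and 1 is not reported here.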

Additional observations from a re-analysis of the deposited data

Results flagged for a closer look

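For 5 of the named antisense RNAs the effect of doxycycline differed with and without A-485 by the interaction test of edgeR. The interaction, on the log2 scale, was -1.71 for VLDLR-AS1, -0.99 for NR2F1-AS1, -0.82 for TAF1A-AS1, -0.76 for ZNF337-AS1 and -0.62 for MRPL20-AS1. In all 5 the change with A-485 was below the change without it. That follows from their selection, since 7 antisense RNAs were called lower and 0 higher. Each was also called without Dox replicate 1, in a fit that called 48.4% of all genes.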

How the results depend on the processing

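RLE scaling and no filter on low counts moved no count past 1.5 times. With library totals alone, 128 antisense RNAs were higher and 37 lower in A-485 against DMSO, against 40.7% and 18.1% of all genes. In that fit 110 were higher in A-485 and Dox against Dox, against 42.1% of all genes. The interaction had 4 lower, 1.61%, against 1.30% of all genes, and 1 pair was opposite in Dox against DMSO. No share of all genes was taken for the other settings in this paragraph. DESeq2 gave 71 higher in Dox against DMSO, 23 higher and 6 lower in A-485 and Dox against A-485, 1 higher and 14 lower in the interaction, and 15 same and 2 opposite pairs in Dox against DMSO. A mean of at least 2 CPM, which leaves fewer genes, gave 35 lower and 31 same pairs in A-485 against DMSO, and 3 lower and 4 same pairs in Dox against DMSO. Groups compared alone gave 4 higher, 0 lower and 0 same pairs in Dox against DMSO, 80 higher and 35 lower in A-485 and Dox against A-485, with 114 same and 53 opposite pairs in A-485 against DMSO. Pairs without shared exon bases numbered 18 same and 4 opposite in A-485 against DMSO and 1 same in Dox against DMSO. Whether libraries with the same replicate number were prepared together is not stated. Their deviations from the group mean correlated at -0.317 to 0.148, against -0.306 to 0.316 for different numbers, which cannot decide it. A fit with replicate number as a block gave 4 lower in Dox against DMSO, 2 lower in the interaction and 6 higher in A-485 and Dox against A-485.

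Library totals alone without Dox replicate 1, chosen after seeing the data, gave 161 higher in A-485 against DMSO, 64.9%, against 63.6% of all genes. In Dox against DMSO 120 were higher and 30 lower, 48.4% and 12.1%, against 42.7% and 24.6%. In A-485 and Dox against A-485 there were 75 higher and 40 lower, 30.2% and 16.1%, against 29.7% and 36.2%. In A-485 and Dox against Dox 137 were higher, 55.2%, against 59.3%. The interaction had 19 higher and 64 lower, 7.66% and 25.8%, against 14.4% and 38.7%. The same fit gave 142 same and 45 opposite pairs in A-485 against DMSO, and 81 same and 23 opposite pairs in Dox against DMSO. Under it OIP5-AS1 in Dox against DMSO turned to 0.0866 and NNT-AS1 in A-485 against DMSO to 0.14. The cause was not tested.

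Leaving out 1 library at a time gave 69 to 120 higher, 49 to 84 lower, 34 to 115 same pairs and 10 to 54 opposite pairs in A-485 against DMSO. It gave 20 to 104 higher, 1 to 37 lower, 2 to 65 same pairs and 0 to 27 opposite pairs in Dox against DMSO. It gave 4 to 75 higher and 0 to 40 lower in A-485 and Dox against A-485, 53 to 105 higher and 69 to 91 lower in A-485 and Dox against Dox, and 0 to 23 higher and 0 to 43 lower in the interaction. The upper ends came without Dox replicate 1. The lowest mean count of an antisense RNA was 33.25 per library, which limits the precision of the scarce ones.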
